A study of Mus musculus domesticus and Mus musculus domesticus x Mus musculus castaneus and Mus musculus castaneus with 10 samples.

Results

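The cell cycle genes described here are a list of 45 genes chosen by symbol and grouped by their textbook role into 16 G1 genes, 12 S genes and 17 G2/M genes. Of these, 43 were matched by Ensembl identifier among the 26808 genes of the deposited count table. Ccnb1 and Mcm5 were not analysed here, which left 16 G1 genes, 11 S genes and 16 G2/M genes. RNA-seq of undifferentiated pluripotent stem cells was used from 2 libraries of homozygous CAST/EiJ (hereafter CAST) cells, a strain derived from the mouse subspecies Mus musculus castaneus. By the study's methods these were induced pluripotent stem cells, made from embryonic fibroblasts with retroviral Oct4, Sox2 and Klf4, grown in serum and LIF over irradiated embryonic fibroblasts, with a feeder depletion step before the RNA was taken. The 4 libraries of 129S6/SvEv embryonic stem cells and the 4 libraries of 129CAS hybrid cells were not analysed here, so no comparison between genotypes was made and no p-value is given. The phase of a gene is its textbook role and was not measured in these cells.

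A cell divides by running through G1, S (DNA replication), G2 and M (mitosis). D cyclins with Cdk4 or Cdk6, and then E cyclins with Cdk2, phosphorylate the pocket proteins Rb1 and Rbl1, which releases E2F factors to switch on genes of DNA replication. Cyclins A and B with Cdk1 drive mitosis, and the anaphase promoting complex with Cdc20 ends it. Mouse pluripotent stem cells are known for fast division with a short G1 phase and for continued expression of many genes that other cells restrict to one phase.

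The depth was 14460393 counts in replicate 1 and 13728098 counts in replicate 2. At this depth 3 counts, the limit below which a gene was treated as not detectable, equal 0.2075 and 0.2185 counts per 1000000 counts of the library (CPM), and all 43 genes lay above it. Levels of different genes are ranked as CPM per kilobase of exon. The difference between the libraries is given as the log2 ratio of replicate 1 to replicate 2, after edgeR's TMM scaling and with 0.5 CPM added. The labels give each library its own batch entry, so batch and replicate cannot be told apart. All 10 pluripotency markers with a row in the table were detected. They summed to 5115 CPM in replicate 1 and 4270 CPM in replicate 2, and 7 of the 10 were higher in replicate 1, from a log2 ratio of 0.64 in Esrrb down to -0.48 in Pou5f1. Pou5f1, which encodes Oct4, and Sox2 were also reprogramming factors, and RNA from the retroviral copies was not told apart here. Fibroblast markers were also detected. Their 12 genes summed to 6604 CPM in replicate 1 and 4073 CPM in replicate 2, with a median log2 ratio of 1.20. None of the 12 was at 0. The largest ratios were those of Fbn1, Col1a2 and Lox. Fn1, at 2401 and 2002 CPM, and Sparc, at 756 and 706 CPM, had log2 ratios of only 0.20 and 0.04. Dcn, which fibroblasts of many tissues express, was at 3.25 and 3.21 CPM. Pdgfrb, at 6.15 and 6.63 CPM, and Lum, at 2.07 and 1.31 CPM, were low as well. In bulk RNA fewer cells of a type and less RNA per cell cannot be told apart. Over all genes the ends of the range of ratios, named after their values were seen, were Fosb, an immediate early gene (1434 and 3 counts), and Hspa1b, a heat shock gene (108 and 3070 counts), and their part in the values below was not tested.

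The 3 D cyclins and the 4 cyclin-dependent kinases (CDKs) are close paralogs, so the stretches that define their shared function are shown to let the reader see how far their sequences differ. Each stretch is 45 bases of coding exon in GRCm38, read from GENCODE transcripts on the strand of the gene. In the D cyclins the stretch begins at the start codon, and capitals mark the codons of the LxCxE motif by which D cyclins bind pocket proteins.
Ccnd1, exon 1, chr7:144939649-144939693, minus strand: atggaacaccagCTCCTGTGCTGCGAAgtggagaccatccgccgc
Ccnd2, exon 1, chr6:127150729-127150773, minus strand: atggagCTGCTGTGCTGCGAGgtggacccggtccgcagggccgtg
Ccnd3, exon 3 of the transcript used, chr17:47593655-47593699, plus strand: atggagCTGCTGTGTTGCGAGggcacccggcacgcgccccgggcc
In the CDKs, capitals mark the codons of the cyclin-binding helix, known as PSTAIRE in Cdk1 and Cdk2, and its counterparts in Cdk4 and Cdk6.
Cdk1, exon 3, chr10:69346104-69346148, minus strand: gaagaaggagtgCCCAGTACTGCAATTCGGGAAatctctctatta
Cdk2, exon 2, chr10:128703955-128703999, minus strand: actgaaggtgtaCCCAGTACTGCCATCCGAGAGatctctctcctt
Cdk4, exon 2, chr10:127064371-127064415, plus strand: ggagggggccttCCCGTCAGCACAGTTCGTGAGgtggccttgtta
Cdk6, exon 1, chr5:3344517-3344561, plus strand: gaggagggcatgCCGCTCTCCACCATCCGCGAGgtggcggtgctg
Even in these conserved stretches Cdk1 and Cdk2 differed at 12 of 45 bases, and Cdk4 and Cdk6 at 17. The longest run of bases shared exactly by transcripts of any pair within the families compared here was 34, between Cdk2 and Cdk6, so no pair within a family shared a stretch of 75 bases.

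Cell cycle genes were abundant, and the S genes held the largest share of the counts. The 43 genes together held 1.21% ± 0.0212 (SD, n = 2) of all counts on genes. The 11 S genes held 0.582% ± 0.0181, the 16 G2/M genes 0.428% ± 0.0518 and the 16 G1 genes 0.196% ± 0.0125 (SD, n = 2). In replicate 1 the S genes had 0.595% (95% Wilson interval 0.591% to 0.599%) and in replicate 2 0.569% (0.565% to 0.573%), where intervals cover counting error only. The G2/M genes had 0.392% and 0.465%, the most different of these shares, and the G1 genes 0.205% and 0.187%. The order S, G2/M, G1 held in both libraries. Within a library, where no scaling enters, the summed counts of G2/M genes were 1.91 times those of G1 genes in replicate 1 and 2.49 times in replicate 2. Per kilobase, 22 of the 43 genes lay in the top 10% of the 13824 genes with at least 10 counts, of which 3 were G1, 8 S and 11 G2/M genes. The 5 genes below the median gene were all G1 genes.

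**Figure D1:**
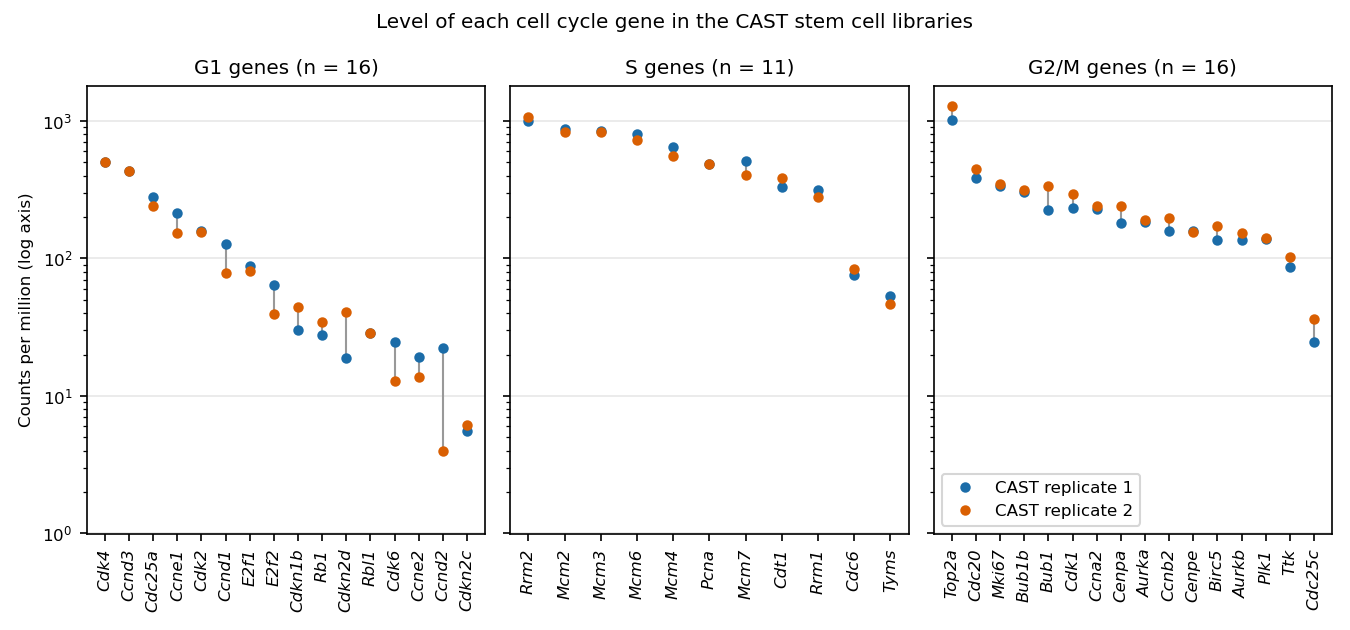
Level in CPM (log axis) of each cell cycle gene in CAST replicate 1 (blue) and CAST replicate 2 (orange), by phase and in order of the mean CPM, which is not corrected for gene length, with a grey line joining the values of a gene. Most S and G2/M genes lie above 100 CPM, the G1 genes run from 500 CPM (Cdk4) down to 5.90 CPM (Cdkn2c), and Ccnd2 has the widest gap.

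Among the D cyclins, the sensors of growth signals that start the cycle, Ccnd3 had the highest level. It had 49.6 and 49.3 CPM per kilobase in replicates 1 and 2. Ccnd1 had 27.0 and 16.5 CPM per kilobase. Ccnd2 had 2.39 and 0.426 CPM per kilobase. The ranges did not overlap, so the order Ccnd3, Ccnd1, Ccnd2 held in both libraries, but how far Ccnd3 led was less certain, at 1.84 times Ccnd1 in replicate 1 and 2.99 times in replicate 2, or 3.32 and 5.39 times with the length of the longest transcript in place of all annotated exons. Ccnd2 rested on 325 counts in replicate 1 and 55 in replicate 2, or 22.5 and 4.01 CPM. This was the largest difference between the libraries of any of the 43 genes, with a log2 ratio of 2.30 (95% interval for counting error 2.01 to 2.87). Its mean of 13.2 CPM falls to 4.01 CPM without replicate 1 and rises to 22.5 CPM without replicate 2.

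The CDKs had widely different levels. Cdk4, the kinase partner of D cyclins, had 154 CPM per kilobase in each library (mean 154 ± 0.363, SD, n = 2). Cdk1, the mitotic kinase, had 46.9 and 59.7 CPM per kilobase. Cdk2, the partner of cyclins E and A, had 25.3 and 25.1. Cdk6, the other partner of D cyclins, had 1.75 and 0.917 CPM per kilobase, so Cdk4 was 88.2 times Cdk6 in replicate 1 and 168 times in replicate 2. No ranges overlapped among these kinases, also with the longest transcript as length, by which Cdk1 was 1.25 times Cdk2 by the mean, beside 2.11 times here. Cdk4 and Cdk2 were among the steadiest genes between libraries, at 501 and 499.6 CPM and at 157 and 156 CPM, while Cdk6 was higher in replicate 1, at 24.5 against 12.8 CPM. Ccnd1, Ccnd2 and Cdk6 were thus higher in replicate 1. So were 10 of 12 fibroblast markers, and 7 of 10 pluripotency markers, where 50.4% of the 13824 genes were. Beyond counting error, 8 of the fibroblast markers and 7 of the pluripotency markers were higher in replicate 1, where 33.1% of the 9926 genes that averaged 5 CPM or more were. The part of feeder cells in these values was not tested.

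Cyclin E was mostly Ccne1. It had 80.3 and 57.8 CPM per kilobase, against 5.46 and 3.92 for Ccne2. Each had a log2 ratio of 0.41 between the libraries, and the ratio of Ccne1 to Ccne2 was 14.7 in each library. Cdc25a, the phosphatase that activates Cdk2, had 282 and 242 CPM.

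The 3 CDK inhibitors of the G1 genes lay below Cdk4 and Cdk1 and above Cdk6 in both libraries. Cdkn2d, which binds Cdk4 and Cdk6, had 11.99 and 25.8 CPM per kilobase. Cdkn1b, which binds Cdk2 complexes, had 6.65 and 9.81. Cdkn2c, a relative of Cdkn2d, had 2.09 and 2.31. These ranges did not overlap either, and Cdkn2d and Cdkn1b were both higher in replicate 2, by log2 ratios of -1.14 and -0.61. The pocket proteins Rb1, at 4.61 and 5.70 CPM per kilobase, and Rbl1, at 4.80 and 4.83, could not be ranked, since their ranges overlapped. They no longer did so with the longest transcript as length, by which Rb1 was 1.01 and 1.24 times Rbl1 within the libraries. E2f1 had 28.0 and 25.9 CPM per kilobase, and E2f2 had 13.0 and 8.03, so E2f1 was the higher of these activators of replication genes in both libraries.

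**Figure D2:**
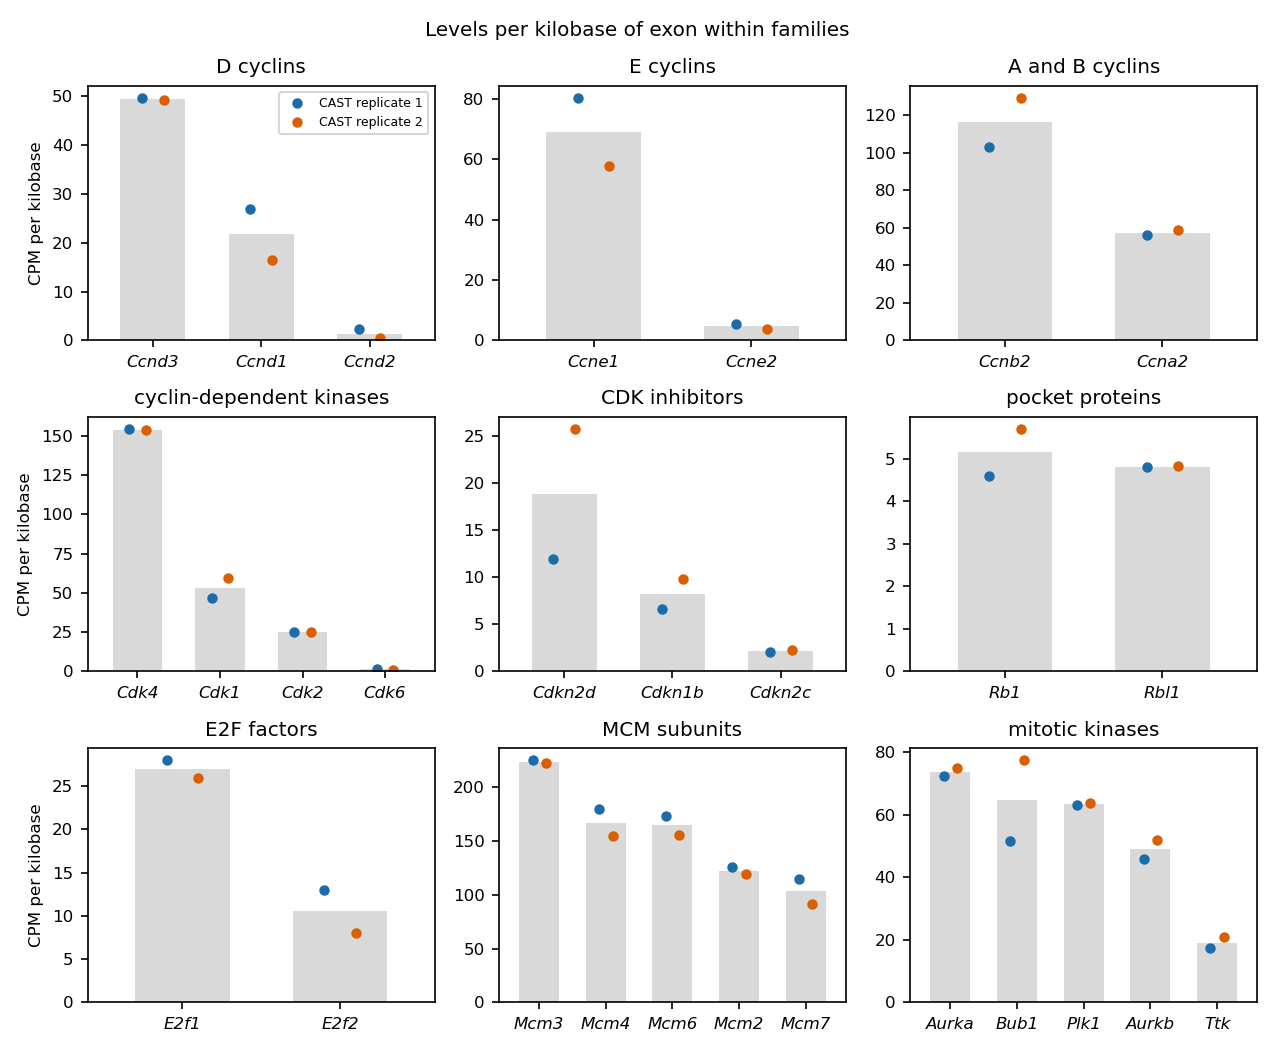
Level per kilobase of exon (CPM per kilobase, linear axes from 0) within 9 families, with grey bars for the mean and points for CAST replicate 1 (blue) and CAST replicate 2 (orange). Ccnd3, Ccne1 and Cdk4 lead their families in both libraries, and the points of Rb1 and Rbl1 overlap.

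Of the 11 S genes, 8 lay in the top 10% of genes per kilobase, and none was 1.5-fold apart between the libraries. Small differences were still common. Counting error was exceeded by 4 S genes higher in replicate 1 and 5 higher in replicate 2, where 33.1% and 33.6% of the 9926 genes did so. Rrm2, the subunit of ribonucleotide reductase that makes DNA precursors available in S phase, led all 43 genes per kilobase, at 362 and 383 CPM per kilobase, above 99.5% of the 13824 genes. Rrm1, the other subunit of the enzyme, had 28.8 and 25.5. The ratio of Rrm2 to Rrm1 was 12.6 in replicate 1 and 15.0 in replicate 2, or 7.92 and 9.45 with the longest transcript as length. Tyms, which makes thymidylate, was the lowest S gene, with 8.82 and 7.68 CPM per kilobase. Pcna, the sliding clamp of DNA polymerases, had 486 and 489 CPM.

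Mcm2 to Mcm7 encode the 6 subunits of the replicative helicase, which assemble in equal numbers, and 5 of them were measured. Mcm3 was highest, with 225 and 222 CPM per kilobase. Mcm4 and Mcm6 followed, with means of 167 ± 18.04 and 165 ± 12.3 (SD, n = 2), and their ranges overlapped. Mcm2 had 126 and 119 CPM per kilobase, and Mcm7 had 115 and 91.5. The highest subunit was thus 2.17 times the lowest by the mean. With the length of the longest transcript, Mcm2 rose to 243 CPM per kilobase, beside 244 for Mcm3, and Mcm7 to 154, so that the rank of Mcm2 depends on the length used. In replicate 1 it was then above Mcm3. The loaders of the helicase differed. Cdt1 had 105 and 123 CPM per kilobase and Cdc6 had 14.6 and 16.03, and Cdt1 was 7.23 and 7.64 times Cdc6.

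Of the G2/M genes, Top2a had the most counts of all 43 genes. This topoisomerase, which untangles sister chromatids, had 14629 counts in replicate 1 and 17515 in replicate 2, or 1012 and 1276 CPM. Mki67, the proliferation marker on mitotic chromosomes, had 334 and 350 CPM. Cdc20 was the highest G2/M gene per kilobase, at 205 and 241 CPM per kilobase. With the longest transcript as length its range, 213 and 251, overlapped that of Top2a, 194 and 244. Cdc25c, a phosphatase that activates Cdk1, was the lowest, at 5.02 and 7.35 by all annotated exons. Ccnb2 had 103 and 129 CPM per kilobase and Ccna2 had 56.0 and 58.8, so the B cyclin led in both libraries.

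The mitotic kinases were more alike than the CDKs. Aurka, which builds the spindle poles, had 72.6 and 75.002 CPM per kilobase. Plk1, which drives entry into mitosis, had 63.3 and 63.8. Bub1, a checkpoint kinase, had 51.8 and 77.5, a range that overlapped those of Aurka, Plk1 and Aurkb. Aurkb, the kinase of the chromosomal passenger complex, had 46.0 and 52.1, below Aurka. Its place beside Plk1 depends on the length used, since with the longest transcript Aurkb was 1.10 and 1.23 times Plk1 and Bub1 no longer overlapped Plk1. Ttk, which starts the spindle checkpoint, was the lowest of these kinases, at 17.6 and 20.8. Bub1b, a checkpoint protein that restrains Cdc20, had 71.0 and 74.0 CPM per kilobase. Cenpa, the histone variant of centromeres, had 30.9 and 40.8, Birc5, a partner of Aurkb, had 39.9 and 50.4, and the kinetochore motor Cenpe had 18.2 in each library. Over all 43 genes ranked per kilobase, 30 of the 42 neighbouring pairs had overlapping ranges, so the full order is coarse.

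The difference between the libraries was not spread evenly over the phases. All 16 G2/M genes had a lower value in replicate 1 than in replicate 2, where 49.6% of the 13824 genes did, and their median log2 ratio was -0.30, against 0.0046 for the 13824 genes. The medians of the G1 and S genes were 0.0029 and 0.018, close to that of all genes. Among the 16 G1 genes, 7 were higher in replicate 1 beyond counting error and 4 in replicate 2, and among the 11 S genes 4 and 5. Of the G2/M genes, 14 lay outside the interval that counting error allows, all of them higher in replicate 2, and Cenpe and Plk1 lay within it. Of the 9926 genes that averaged 5 CPM or more, 33.6% were higher in replicate 2 beyond counting error and 33.1% in replicate 1. These shares are not matched for depth, on which passing counting error depends. The median level was 44.9 CPM in the 9926 genes and 198 CPM in the G2/M genes. The largest differences were those of Bub1, at 3259 and 4635 counts with a log2 ratio of -0.64 (-0.71 to -0.58), Cdc25c at -0.60 and Cenpa at -0.46. With library totals in place of TMM, Cenpe turned and 15 of 16 were higher in replicate 2, with a median of -0.24, while 44.5% of the 13824 genes were higher there. These are 2 libraries of 1 group, and the values describe them only.

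**Figure D3:**
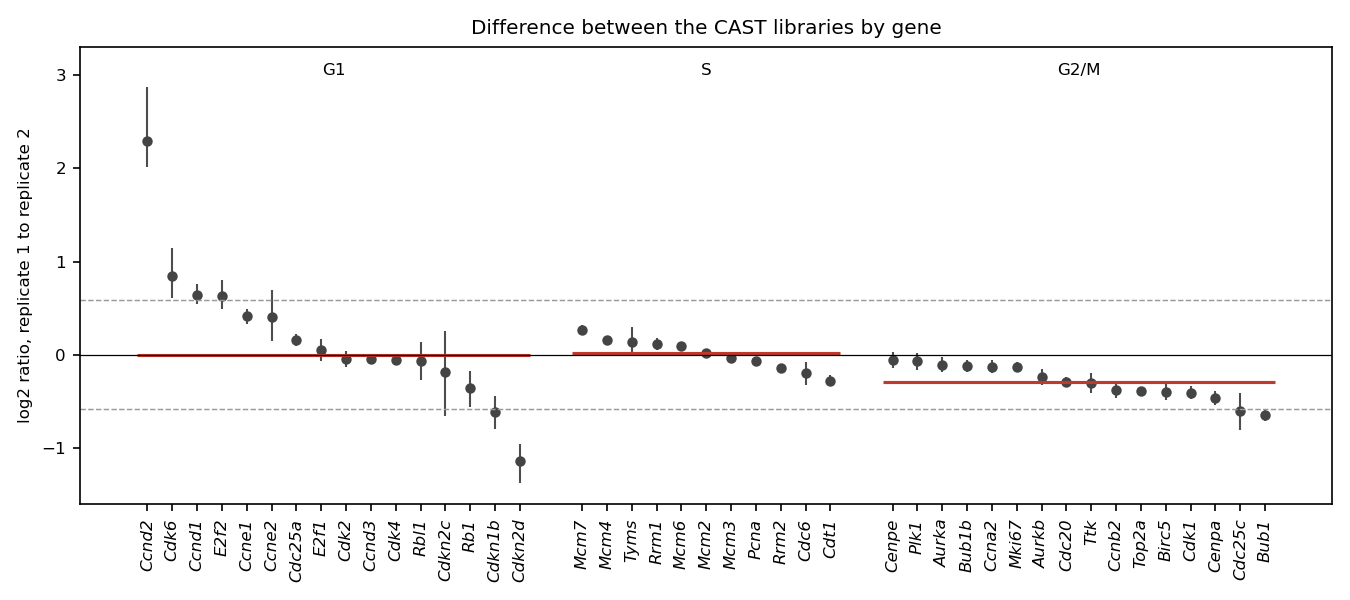
Log2 ratio of CAST replicate 1 to CAST replicate 2 for each gene (points), with the 95% interval for counting error (vertical lines), the median of each phase (red) and the 1.5-fold limits (dashed). All G2/M points lie below 0, the S points stay within the limits and the G1 points spread on both sides.

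The G1 genes differed most between the libraries and the S genes least. The median size of the log2 ratio was 0.38 in the G1 genes, 0.14 in the S genes and 0.30 in the G2/M genes, beside 0.31 over the 13824 genes and 0.27 over the 9926 genes that averaged 5 CPM or more, as all 43 did. At least 1.5-fold apart were 8 of the 43 genes, where 24.3% of the 13824 genes were, 13.5% of them higher in replicate 1 and 10.9% in replicate 2. Among the 9926 genes the share was 17.7%. The share of the cell cycle genes is therefore near the background. Of the 8, Ccnd1, Ccnd2, Cdk6 and E2f2 were higher in replicate 1, and Cdkn1b, Cdkn2d, Cdc25c and Bub1 in replicate 2. With library totals in place of TMM, Cdkn1b, Cdc25c and Bub1 were no longer 1.5-fold apart and 5 genes remained. No S gene was among them, and the S genes ran from a log2 ratio of -0.28 in Cdt1 to 0.27 in Mcm7. Past 2-fold were Ccnd2 and Cdkn2d, beside 9.11% of the 13824 genes.

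The 6 other lists of cell cycle genes hold none of the 45. Of the 16 spindle, kinetochore and checkpoint genes with a row, 13 were higher in replicate 2, with a median log2 ratio of -0.34, and 11 were so beyond counting error. The shares of 49.6% (of 13824 genes) and 33.6% (of 9926 genes) given above are the background for counts higher in replicate 2, and 50.4% and 33.1% for those higher in replicate 1. Kif23, a motor of the central spindle, led them, at 178 and 304 CPM, and Knl1, a kinetochore scaffold, went the other way, at 84.9 and 58.4 CPM. The 14 genes of the anaphase promoting complex and its partners had a median of -0.05, and 10 were higher in replicate 2. Beyond counting error, 6 were higher in replicate 2 and 1 in replicate 1, and the list held 0.239% and 0.281% of the counts. Their lowest ratio was that of Ube2c, the complex's ubiquitin-conjugating enzyme, at 343 and 535 CPM. Ube2s, the highest gene of the list, was also higher in replicate 2, at 524 and 751 CPM. Ube2s and Ube2c held the most counts of the list, so the difference in its share rests largely on them. The 8 genes of entry into mitosis had a median of 0.11 and 6 were higher in replicate 1, among them Wee1, the kinase that holds Cdk1 inactive, at 139 and 82.3 CPM. Beyond counting error, 4 of the 8 were higher in replicate 1 and 2 in replicate 2. Cdc25b, which acts against Wee1, was higher in replicate 2, at 16.7 and 29.4 CPM.

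The other 3 lists hold genes of DNA replication, transcription and CDK inhibition. The 28 genes of replication initiation and the fork had a median log2 ratio of -0.08, and 18 were higher in replicate 2. Beyond counting error, 12 were higher in replicate 2 and 4 in replicate 1. They held 0.382% and 0.383% of the counts. Their ratios ran from -0.73 in Orc4 to 0.52 in Orc1, which both encode subunits of the origin recognition complex. The 15 other E2F, pocket protein and DREAM or MYB-MuvB genes had a median of 0.01, with 5 higher in each library beyond counting error, and the highest of them was Mybl2, a regulator of mitotic genes, at 854 and 834 CPM. Of the 4 other CDK inhibitors, Cdkn1a, which p53 induces, was highest, at 300.3 and 315 CPM. Its mean of 86.6 CPM per kilobase lay above the 18.9 of Cdkn2d. Cdkn1c was lowest, at 4.08 and 7.87 CPM. Beyond counting error, 1 of the 4 was higher in replicate 1 and 2 in replicate 2.

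**Figure D4:**
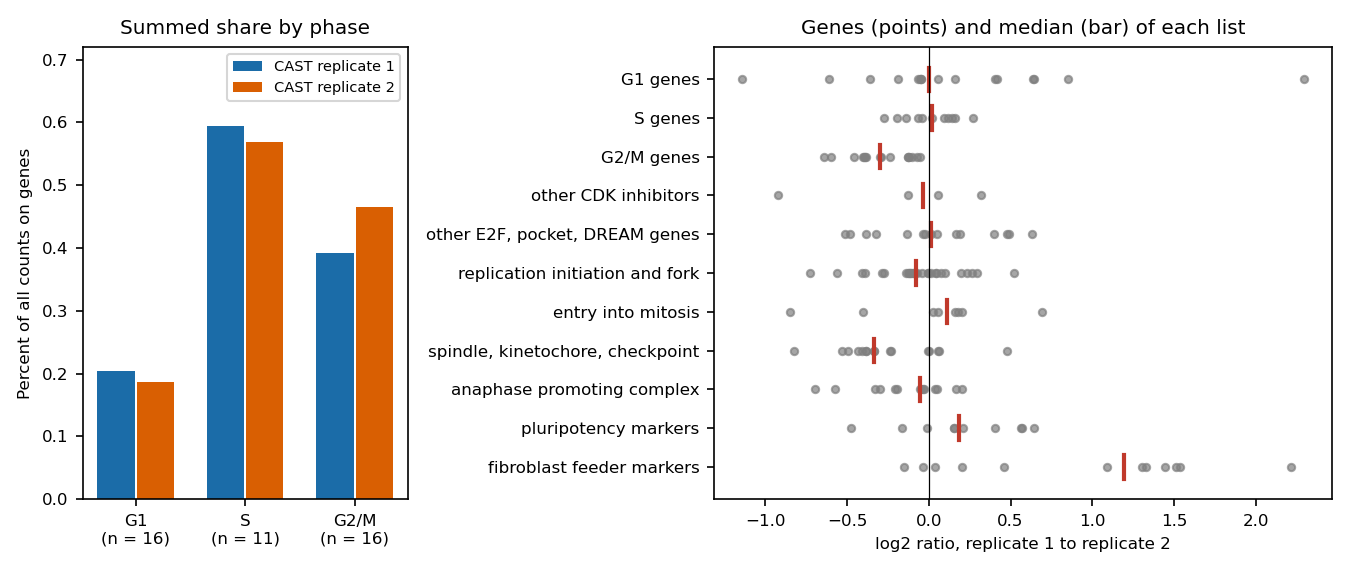
Left, percent of all counts on genes held by the G1, S and G2/M genes in CAST replicate 1 (blue) and CAST replicate 2 (orange). Right, log2 ratio of replicate 1 to replicate 2 for each gene (grey points) and the median (red bar) of the phases and of the other lists, where the G2/M and spindle genes lie mostly left of 0 and the fibroblast feeder markers mostly right.

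Reads of 10 of the 43 genes can be shared with another gene, since at least 5% of their stretches of 75 bases also occur in its transcript, on either strand. Among them were Ccnd1 with LTO1 (20.6% of stretches), Cdk4 with Tspan31 (15.7%), Ccne2 with Ints8 (12.8%) and Ccna2 with Exosc9 (10.8%). Ints8 had 1160 and 1243 counts against 276 and 188 for Ccne2, so the level of Ccne2 is uncertain. Pcna shares 13.9% of its stretches with the pseudogene Pcna-ps2. The study's methods name paired reads longer than 75 bases, which can reach beyond a shared stretch, so these shares may overstate the overlap. Only annotated transcripts were searched. The strand setting of the counting is not given in the sources used here, and the part of shared reads in these levels was not tested. Without these 10 genes the median log2 ratio of the G2/M genes was -0.30.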

How the data were processed

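RNA-seq counts of 2 CAST stem cell libraries were used. The authors deposited raw counts of reads per gene, without normalization, by Ensembl identifier. The paper's methods name STAR on the CAST/EiJ genome with reads of more than 1 locus discarded, whereas the submitters' processing notes name TopHat2 2.1.1, SAMtools, HTSeq and GRCm38. Which of these made the table is not stated, and mapping to a genome of another strain could lower genes that differ in sequence. A further 7 columns of per-sample values carry names that fit none of the samples listed for the series, and they were not used.

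Symbols, positions and lengths came from GENCODE vM21 (GRCm38). Levels are CPM of library totals. Ratios used TMM (edgeR 4.0.16, R 4.3.3), 0.5 CPM added and a minimum of 10 counts over both libraries (13824 of 26808 genes). A gene was counted as apart at 1.5-fold. Intervals are 95%, exact binomial for ratios and Wilson for shares, and cover counting error only. The libraries are separate samples by their labels, and the methods speak of replicates from cultures without saying whether each library was its own culture, so their spread may be technical. The common biological coefficient of variation of the libraries was 0.277. Ratio functions were tested on simulated data. DESeq2 1.42.0 gave alternative size factors, and Python 3.11.15 was used for the remainder. All 45 listed genes are the genes named. Genes of the other lists were named by the highest or lowest level or the largest ratio of a list, and any further ones after their values were seen. The genes and lists were chosen with earlier results of these data known, and the families and sequence stretches after the table had been seen. A planned search of promoters for motifs was not run, since no promoter sequences were used here.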

Additional observations from a re-analysis of the deposited data

How the results depend on the processing

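No paired analysis was possible because only 1 group, the CAST stem cells, was analysed here. The order of the phases by share of counts held under every total tried and without either library. Without the most abundant gene of each set the shares were 0.146% (G1, without Cdk4), 0.479% (S, without Rrm2), 0.314% (G2/M, without Top2a) and 1.09% (all 43, without Top2a). Without the 10 genes with shared stretches, an alternative chosen after seeing the data, they were 0.129% (G1), 0.488% (S) and 1.00% (all), with fewer genes summed. With autosomal genes as the total all 43 held 1.24%. Leaving out 1 library gave 0.187% to 0.205% for G1, 0.569% to 0.595% for S, 0.392% to 0.465% for G2/M and 1.19% to 1.22% for all.

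Scaling by library totals instead of TMM gave median log2 ratios of 0.061 (G1), 0.077 (S) and -0.24 (G2/M), beside 0.060 for all genes, which this scaling moves alike. Without the genes with shared stretches the G1 median was -0.048 and that of G2/M minus G1 -0.25, beside -0.30 with all genes. The number of genes apart, 8, was 5 with library totals, 5 without the genes with shared stretches and 2 at 2-fold. DESeq2 size factors, the pseudocounts of 0.1 and 2 CPM and a lower count limit left it at 7 or 8.

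With the longest transcript as length, Ccnd3 was 4.11 times Ccnd1, Ccne1 16.9 times Ccne2, Ccnb2 1.47 times Ccna2 and Cdk4 4.06 times Cdk1. The means of these pairs kept their order, while in the other families Mcm2 rose above Mcm3 in 1 library and Aurkb above Plk1 in both. Leaving out 1 library turned the top pair for Rb1 and Rbl1 (0.960 to 1.18) and for Aurka and Bub1 (0.967 to 1.40), whose ranges overlap.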
